A study of Mus musculus with 26 samples.

Results

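OT-1 thymocytes carry 1 transgenic T cell receptor that is restricted to MHC class I, and the OT-1 mice used here were C57/BL6 animals without Rag2 (OT-1tg Rag2KO). Thymocytes were sorted into a late positive selection population that still displayed both coreceptors (CD4+CD8+CXCR4-CCR7+) and a mature CD8SP population (CD4-CD8+CXCR4-CCR7+), with 3 libraries of each. These 6 libraries were compared here, of 26 in the study. The other libraries came from OT-1 cells at early positive selection (CD4+CD8+CXCR4+CCR7-), and from the same 3 stages of F5tg Rag1KO mice on C57/BL6 and of TG6tg H2b/d mice, a cross of C57/BL6 and B6.C-H2d/bByJ. F5 and TG6 are 2 other transgenic receptors, and late positive selection of TG6 had 2 libraries. No Rag deletion is named for these TG6 mice. Receptor, Rag genotype and MHC haplotype therefore cannot be told apart between OT-1 and TG6. No group received a treatment, and the labels give no age or sex. Since all T cells of an OT-1 mouse share 1 receptor, the libraries describe that receptor and not a polyclonal repertoire.

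During positive selection in the thymic cortex, a thymocyte with both coreceptors receives signals through its receptor for self-peptide on MHC. It then replaces the cortical chemokine receptor CXCR4 with the medullary receptor CCR7, silences Cd4 if it is restricted to MHC class I, and matures in the medulla before it leaves for the periphery. Maturation of single positive thymocytes is known to include a late round of cell division, the gain of MHC class I and interferon-dependent genes, and the gain of receptors for exit from the thymus. Whether the same steps are visible between these 2 gates in cells of high self-reactivity is the question that the comparison addresses.

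Values are deposited normalized counts. Of the 46517 gene symbols in the table, 16372 reached 10 in 2 or more of the 26 libraries, and these were tested with limma after log2(value + 1). Genes with a Benjamini-Hochberg adjusted p under 0.05 are said to be called, higher or lower. Log2 fold changes are mature over late and rest on log2(value + 1), so those of weakly expressed genes come out too small, and the ± after them is the standard error. All other ± are SD over 3 libraries. P-values rest on the spread between libraries of a group, pooled over the 9 groups of the 3 lines. Late and mature libraries are treated as unpaired unless a block is named. The summed normalized counts were 17593108 to 17956066 in the late and 18340427 to 18944173 in the mature libraries, at an estimated 17098973 to 18159917 reads. Libraries of 1 stage correlated at 0.971 to 0.978, and the first principal component, with 46.8% of the variance of the 6 libraries, separated the stages. For the change within OT-1, ranges given for left-out libraries are over the 6 fits that each lack 1 of the late or mature OT-1 libraries.

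Between the stages, 3997 genes were called (24.4% of those tested). Of these, 2300 were higher in mature CD8SP cells (14%) and 1697 were lower (10.4%). With libraries scaled to equal totals the split was 1945 higher and 2093 lower, and after quantile normalization it was 1879 and 2188, so the balance of rises and falls was not stable to scaling. With the replicate number, taken as the mouse, as a block (mouse as a block hereafter), 3080 were higher and 2655 lower. Large changes were mostly rises. By more than 3 on the log2 scale, 178 genes were higher and 12 lower. In 7117 genes (43.5%) the 3 late and the 3 mature libraries did not overlap. Rag2, whose deletion all OT-1 mice carry, was listed at 9.39, 11.1 and 5.37 normalized counts in late and 10.9, 8.64 and 35.9 in mature libraries, with a mean of 216 in early ones, so transcript from the locus was still counted there. The bulk libraries cannot tell fewer cells that express a gene from less RNA of that gene in each cell.

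Of the lists described here, the 3 of cell division had the largest median rises. Of 58 tested genes of G2 phase and mitosis, 57 were higher in mature cells and none lower, against 14% higher over all genes tested. Their median log2 fold change was 3.52, beside −0.02 over all genes. Of 52 DNA replication genes, 51 were higher, with a median of 2.01. With 1 library left out, 56 to 57 mitosis genes and 51 replication genes were higher. The exceptions were Pttg1, which encodes securin, at 196 ± 9.69 in late and 216 ± 30.3 in mature cells (adjusted p = 0.57), and Orc1, a subunit of the origin recognition complex, at 162 ± 121 and 551 ± 362 (adjusted p = 0.12, or 0.0015 with mouse as a block). Of 61 tested replication-dependent histone genes, 25 were higher and none lower, with a median of 2.45. In these 3 lists limma without a block called none lower, and none was lower at an unadjusted p under 0.05 either. With mouse as a block, 1 histone gene was called lower. The histone genes are near-identical copies, so the division of reads among them is uncertain.

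Promoters of 4 division genes are shown because the letters of short cell cycle motifs differed in frequency between the mitosis and the replication list. Promoter windows of 250 bases before to 50 bases after the start were read from RefSeq (GRCm38.p6, the mm10 build of the files), and 10390 of the 16372 genes tested had one. The motifs, searched on both strands after the values had been seen, were the cell cycle homology region (CHR, TTTGAA or TTTAAA), the E2F site (TTTCCCGC, TTTCGCGC, TTTGCCGC or TTTGGCGC, whose matches on the 2 strands can overlap) and the CCAAT box (CCAAT). Capitals mark every match to these motifs in the 4 windows of division genes. Cdk1, Espl1 and Kif4 are among the mitosis genes with the largest rises, and Mcm5 stands for the replication genes with an E2F site.

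Cdk1, chr10:69352863-69353162, minus strand: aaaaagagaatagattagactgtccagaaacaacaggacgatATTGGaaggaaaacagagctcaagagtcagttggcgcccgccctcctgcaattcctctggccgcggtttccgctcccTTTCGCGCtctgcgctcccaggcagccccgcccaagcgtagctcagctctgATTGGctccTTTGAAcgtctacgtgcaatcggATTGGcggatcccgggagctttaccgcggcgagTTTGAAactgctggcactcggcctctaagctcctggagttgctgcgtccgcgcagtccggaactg
Espl1, chr15:102296043-102296342, plus strand: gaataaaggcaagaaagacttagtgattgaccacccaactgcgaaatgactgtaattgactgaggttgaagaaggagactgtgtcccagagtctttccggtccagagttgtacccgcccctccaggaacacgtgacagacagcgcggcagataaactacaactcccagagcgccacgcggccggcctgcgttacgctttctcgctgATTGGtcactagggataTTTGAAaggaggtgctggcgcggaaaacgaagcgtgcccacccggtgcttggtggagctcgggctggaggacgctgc
Kif4, chrX:100625815-100626114, plus strand: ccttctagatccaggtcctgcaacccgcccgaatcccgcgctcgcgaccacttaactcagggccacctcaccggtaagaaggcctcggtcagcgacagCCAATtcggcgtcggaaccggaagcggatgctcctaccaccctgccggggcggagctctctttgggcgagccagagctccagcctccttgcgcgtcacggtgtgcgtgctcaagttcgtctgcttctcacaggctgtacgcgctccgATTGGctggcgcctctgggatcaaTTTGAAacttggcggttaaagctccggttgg
Mcm5, chr8:75109259-75109558, plus strand: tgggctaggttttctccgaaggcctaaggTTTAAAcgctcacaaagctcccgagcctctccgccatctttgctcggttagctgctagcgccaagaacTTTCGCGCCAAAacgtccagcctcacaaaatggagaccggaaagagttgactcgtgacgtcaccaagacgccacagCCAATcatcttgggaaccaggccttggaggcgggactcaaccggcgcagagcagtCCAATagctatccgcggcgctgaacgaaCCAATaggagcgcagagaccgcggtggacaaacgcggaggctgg

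A CHR motif in the last 100 bases of the window, which are centred on the start, was found in 33 of 48 mitosis promoters (68.8%) and in 7 of 43 replication promoters (16.3%), against 6.28% of the promoters of genes tested and 9.54% of all 27025 in the reference. An E2F site was found in 4 mitosis promoters (8.33%) and 17 replication promoters (39.5%), against 4.57% of genes tested and 2.60% of all. CCAAT boxes were found in 68.8% of mitosis promoters, 62.8% of replication promoters and 43.0% of genes tested, and also in 80.8% of the promoters of sterol genes and 70.8% of those of MHC class I genes. In the windows above, the CHR nearest to the start began at position −15 in Cdk1, −27 in Espl1 and 19 in Kif4, and the overlapping E2F pair of Mcm5 began at positions −153 and −149. A match is a description of the letters and not evidence that a factor bound there.

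Aurkb, the Aurora B kinase of the chromosomal passenger complex, had 63.7, 32.1 and 79.7 normalized counts in the late libraries and 1530, 1331 and 1564 in the mature libraries. The groups were far apart, and its log2 fold change was 4.72 ± 0.75 (adjusted p = 0.00012). Cdk1, the kinase that drives entry into mitosis (chromosome 10, 69335146 to 69352938), went from 102, 41.1 and 115 to 1605, 1669 and 1838 (4.42 ± 0.79, adjusted p = 0.00034). Espl1, the separase that cuts cohesin, went from 166, 102 and 155 to 3111, 3137 and 2888 (4.46 ± 0.93, adjusted p = 0.0014). In each of the 3, every mature library was more than 10 times any late library. Cyclin A2 (Ccna2, 4.38 ± 0.84, adjusted p = 0.00065) and the chromokinesin Kif4 (4.43 ± 0.75, adjusted p = 0.00021) rose in the same way.

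Among the replication genes, Rrm2, the ribonucleotide reductase subunit that is made in S phase, had 268, 166 and 271 in late and 4214, 3971 and 4769 in mature libraries (4.23 ± 0.72, adjusted p = 0.00021). Thymidylate synthase (Tyms) had 198, 118 and 185 and then 2158, 2044 and 2315 (3.73 ± 0.51, adjusted p = 2.3e-05). E2f8, a repressor of the E2F family, rose by 4.42 ± 1.01 (adjusted p = 0.003) and thymidine kinase Tk1 by 3.38 ± 0.51 (adjusted p = 7.1e-05). The helicase subunit Mcm5 and the sliding clamp Pcna were well above background in late cells already, at 1956 ± 227 and 2732 ± 149, and rose to 7922 ± 412 and 10567 ± 202 (adjusted p = 2.2e-05 and 3.5e-05).

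Set beside the early stage, the late libraries were the low point. The summed normalized counts of the mitosis genes were 178500, 174300 and 239300 in early, 28730, 26050 and 27930 in late, and 187800, 190400 and 204200 in mature libraries. Mature sums lay within the range of the early sums, and all 58 genes were called lower from early to late (14% of genes tested were). For the replication genes the sums were 122500 to 128500 in early, 39000 to 44140 in late and 145400 to 152400 in mature libraries, and the mature values lay above all early values. The comparisons share the late libraries, so a low late value moves both.

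**Figure D1:**
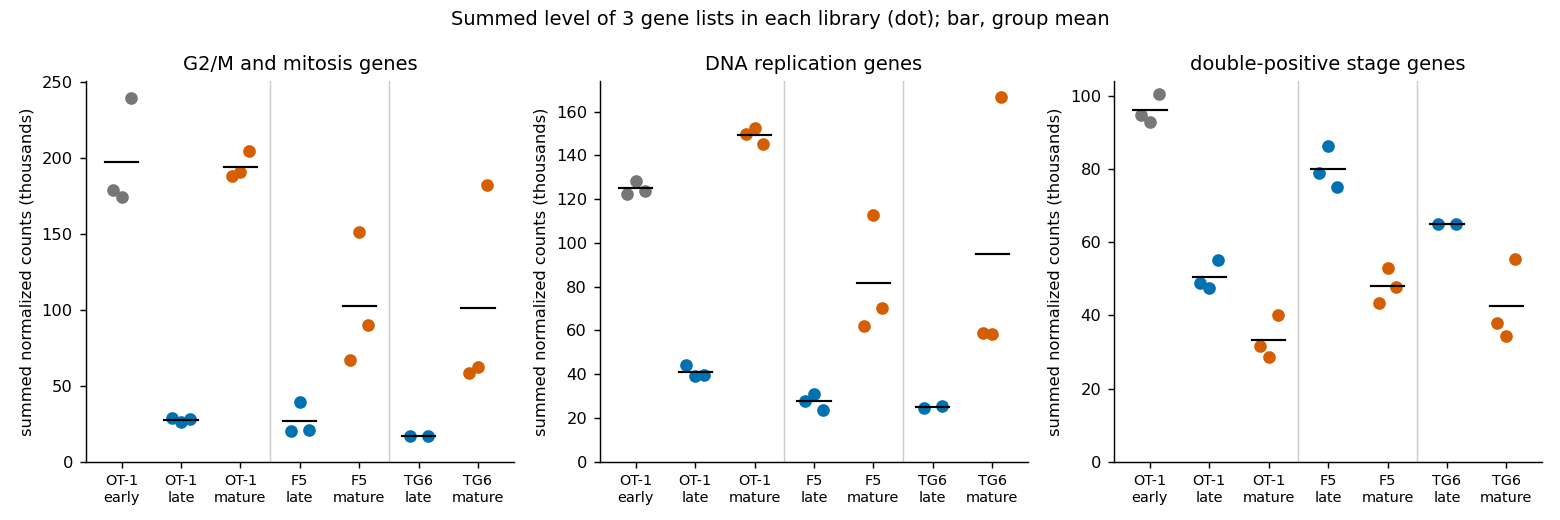
Summed normalized counts of the mitosis, DNA replication and double-positive stage lists in every library of OT-1 at 3 stages and of F5 and TG6 at 2 stages, each dot a library and each bar a group mean. In OT-1 the mitosis sums are 26050 to 28730 at late positive selection and 187800 to 204200 in mature cells. The double-positive stage sums of OT-1, whose largest member is Ccr9, are lowest in mature cells.

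Some genes of the double-positive stage were higher in the mature libraries too, and their part in the rise of division genes was not tested. Of 24 tested double-positive stage genes, 5 were higher and 6 lower, against 14% and 10.4% over all genes, with a median of 0.08. The summed list was lower at each later stage, from 93000 to 100500 in early and 47430 to 55150 in late to 28600 to 40000 in mature libraries. Its largest member was Ccr9, with means of 23060 in late and 9508 in mature libraries, while 12 of the 24 genes had a positive log2 fold change. Rag1, the recombinase gene, which is intact in Rag2-/- mice (chromosome 2, 101638282 to 101649501), had 33.1, 24.1 and 82.1 normalized counts in late and 233, 203 and 545 in mature libraries, beside a mean of 5491 in early ones (2.84 ± 0.88, adjusted p = 0.022). Ptcra, the pre-T cell receptor alpha chain, had 4.14, 5.23 and 11.2 and then 72, 52.2 and 92.9, beside 150 in early cells (3.29 ± 0.60, adjusted p = 0.00044). In both genes replicate 3 was the highest library of its stage. The other rises were Mns1 (1.35 ± 0.44, adjusted p = 0.03), Aqp11 (1.52 ± 0.54, adjusted p = 0.044) and the ectoenzyme gene Cd38 (2.34 ± 0.56, adjusted p = 0.0041). Cd38 had a mean of 5.59 in early and 44.1 in mature libraries, so it was not a gene of the early stage here. Without mature replicate 3, 2 of the 24 were higher and 6 lower, and Rag1 (adjusted p = 0.096), Mns1 (0.13) and Aqp11 (0.22) were no longer called. Rag1 was also lost without late replicate 1 (0.067) or late replicate 2 (0.092), Mns1 without late replicate 1 (0.077), late replicate 2 (0.13) or mature replicate 1 (0.05), and Aqp11 without any late library (0.061 to 0.13) or mature replicate 1 (0.096). Aqp11 was called in 7 of 19 alternatives in all and was lost under both other scalings as well.

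Terminal deoxynucleotidyl transferase (Dntt), another early gene, had 753, 622 and 1037 in late and 1446, 1104 and 2545 in mature libraries, beside a mean of 7921 in early ones (adjusted p = 0.11, or 0.018 with mouse as a block). Genes of the double-positive stage that fell included Ccr9, a homing receptor for the chemokine CCL25, from 21739, 19281 and 28159 to 8952, 7718 and 11855 (−1.28 ± 0.18, adjusted p = 2.5e-05), and Cd1d1, which presents lipids to NKT cells, from 1269 ± 110 to 580 ± 42.7 (−1.13 ± 0.13, adjusted p = 7e-06). The meiotic endonuclease gene Spo11, which double-positive thymocytes transcribe, had 461 ± 57.9 and 102 ± 15.8 (−2.18 ± 0.16, adjusted p = 6e-08). 

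The sorted surface proteins were checked in their transcripts. Cd4 (chromosome 6, 124864692 to 124888221) had 1963, 1455 and 4103 normalized counts in late and 129, 62.8 and 268 in mature libraries, which is the direction of the gate (−4.12 ± 0.50, adjusted p = 7.5e-06). Of the CD8 chains, Cd8b1 rose from 5544, 5434 and 5658 to 10426, 11731 and 10207 (0.96 ± 0.15, adjusted p = 7e-05). Cd8a had 15997 ± 866 and 19926 ± 1061 (0.32 ± 0.12), which missed the threshold at an adjusted p of 0.061 and passed it with mouse as a block (0.035). Ccr7, on which both gates are positive, did not pass, at 9570 ± 2001 and 10184 ± 2576 (0.08 ± 0.35, adjusted p = 0.89). Both gates excluded CXCR4 on the surface, but the Cxcr4 transcript had 756, 350 and 1432 in late and 1945, 1219 and 3316 in mature libraries, with overlap between the groups (1.46 ± 0.43, adjusted p = 0.017). That call was lost without mature replicate 3 (adjusted p = 0.10) or late replicate 2 (0.13), with only the 2 groups compared (0.12) and with only the 3 OT-1 groups (0.075). The early libraries, sorted as CXCR4+, had a mean of 2022.

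Zbtb7b, Satb1 and Bcl11b were lower in mature cells and Cbfb was higher. Of 27 coreceptor and lineage genes, 10 were lower and 2 higher (12 and 4 with mouse as a block), against 10.4% lower and 14% higher over all genes. Zbtb7b, which encodes ThPOK, the factor that commits cells to the CD4 lineage (chromosome 3, 89377644 to 89394776), had 175, 96.0 and 461 in late and 10.5, 20.1 and 38.8 in mature libraries (−3.22 ± 0.70, adjusted p = 0.002). All late values were above all mature values, and late replicate 3 was highest both in Zbtb7b and in Cd4. Satb1, a chromatin organizer that acts on both coreceptor loci, fell from 45851 ± 675 to 20880 ± 1296 (−1.14 ± 0.10, adjusted p = 6.6e-07), and Bcl11b, a T cell identity factor, from 14822 ± 1722 to 8216 ± 739 (−0.85 ± 0.12, adjusted p = 3e-05). Cbfb, the partner of the Runx proteins, rose from 3535 ± 209 to 5205 ± 91.4 (0.56 ± 0.10, adjusted p = 0.0003). Runx3, the factor of the CD8 lineage, had 4658, 4298 and 3805 and then 3918, 3433 and 2622 (adjusted p = 0.41), and its increase lay before these gates, from a mean of 1399 in early cells (early to late 1.61, adjusted p = 0.00052).

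**Figure D2:**
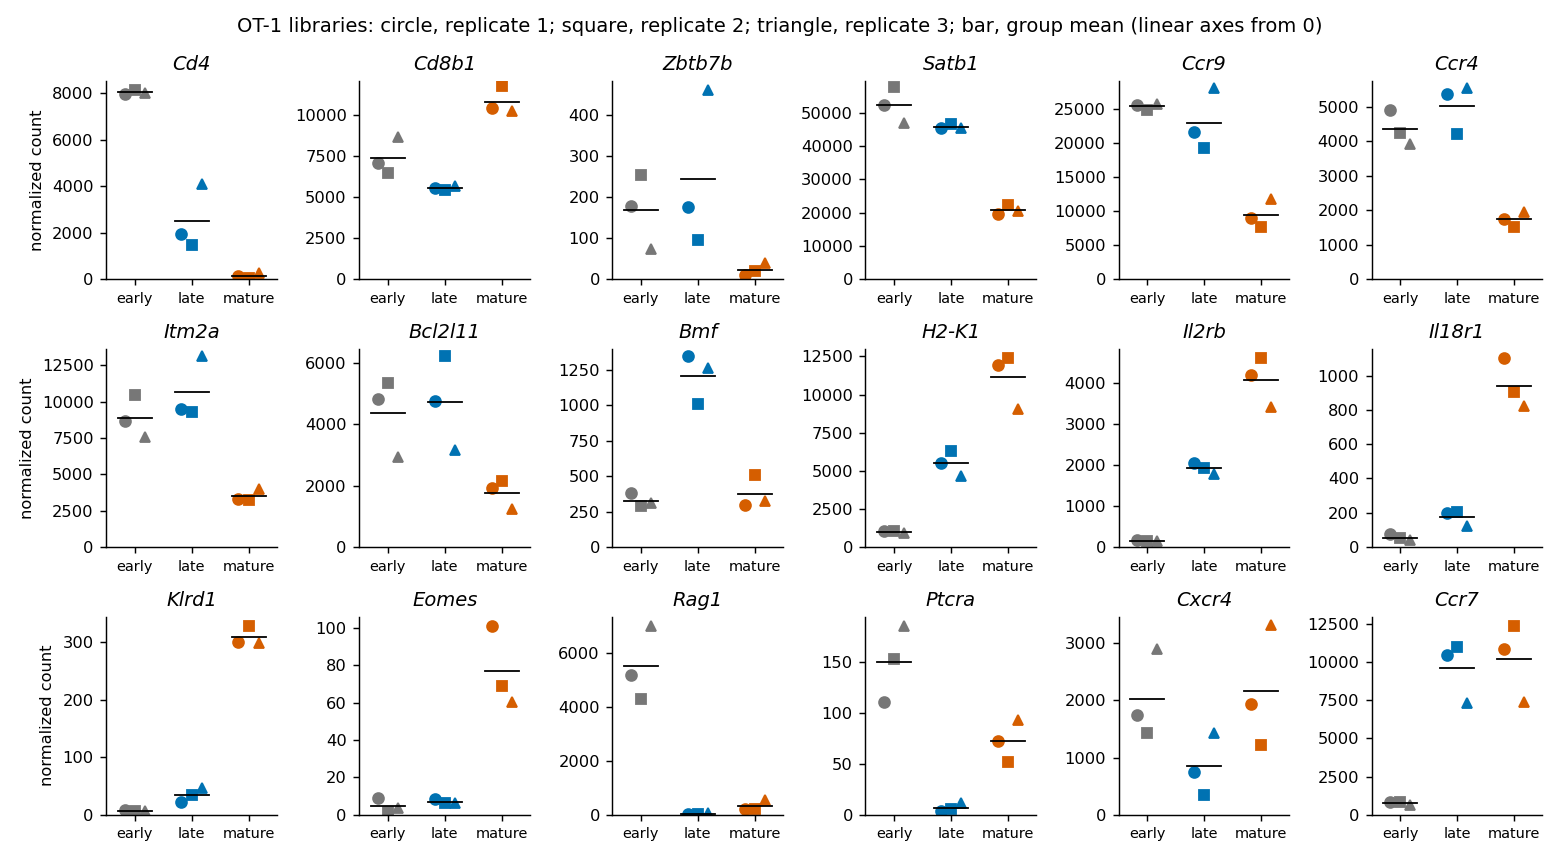
Normalized counts of 18 genes in each OT-1 library at early, late and mature stages on linear axes from 0, with a symbol for each replicate number and a bar for each group mean. Cd4, Zbtb7b, Satb1, Ccr9, Ccr4, Itm2a, Bcl2l11 and Bmf are lower in all mature than in all late libraries, whereas Cxcr4 and Ccr7 overlap between the 2 stages.

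Trbc1, Prkcq and Itm2a were lower in mature cells. Of 30 genes for T cell receptor chains, CD3 and proximal signalling, 13 were lower (9 to 12 with 1 library left out), against 10.4% over all genes, with a median of −0.27. By limma none of the 30 was higher, also at an unadjusted p under 0.05. Trbc1 fell from 24269 ± 2405 to 13987 ± 405 (−0.79 ± 0.09, adjusted p = 4.2e-06) and the kinase gene Prkcq from 11238 ± 671 to 7572 ± 353 (−0.57 ± 0.10, adjusted p = 0.00029). Of 46 genes that respond to receptor signals, 7 were lower and 4 higher, with a median of −0.14, against 10.4% lower and 14% higher over all genes. With mouse as a block 14 of them were lower and 5 higher. With 1 library left out, 3 to 5 were lower and 2 to 3 higher. Falls were seen in Itm2a, a membrane protein gene induced in selection, from 9500, 9294 and 13127 to 3295, 3206 and 4004 (−1.59 ± 0.21, adjusted p = 1.5e-05), and in Nfkbid, an atypical IκB, from 1348, 1263 and 898 to 677, 661 and 599 (−0.84 ± 0.17, adjusted p = 0.0011). The signal reporter Nr4a1 (Nur77) ranged widely, at 13330, 9993 and 4592 in late and 5010, 3848 and 2518 in mature libraries, so that its groups overlapped (adjusted p = 0.21). In Nr4a1 replicate 3 was the lowest library of each stage, and with mouse as a block the adjusted p was 0.00013. Cd69 had 1629 ± 580 and 1701 ± 911 (adjusted p = 1.0). Ubash3b, a phosphatase that restrains receptor signals, rose from 565 ± 61.1 to 970 ± 109 (0.78 ± 0.18, adjusted p = 0.0038).

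Of 17 tested Bcl-2 family genes, 3 were lower and 4 higher (2 to 4 higher with 1 library left out), against 10.4% lower and 14% higher over all genes. The 3 that fell all encode BH3-only proteins that promote death. Bcl2l11 (Bim), which acts in clonal deletion (chromosome 2, 128126038 to 128162547), had 4762, 6202 and 3168 in late and 1906, 2152 and 1242 in mature libraries (−1.40 ± 0.35, adjusted p = 0.006). Bmf had 1347, 1009 and 1261 and then 294, 508 and 327 (−1.71 ± 0.35, adjusted p = 0.0012), and Bbc3 (Puma) had 441, 594 and 645 and then 159, 194 and 148 (−1.73 ± 0.48, adjusted p = 0.012). In all 3 genes the groups did not overlap, as in 43.5% of all genes tested. The early mean of Bmf was 328, so that its late libraries were the high point. Bid, also a BH3-only gene, rose from 282 ± 42.6 to 625 ± 73.2 (1.15 ± 0.23, adjusted p = 0.0012), and Bcl2a1b, whose reads may be shared with its paralogs, had 20.9 ± 8.63 and 88.0 ± 3.41 (adjusted p = 0.024, and 0.056 to 0.097 without any 1 of mature replicates 1 to 3 or late replicates 1 and 2).

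The class I genes H2-K1 and H2-Q7 were higher in mature cells. Of 30 tested genes of MHC class I and peptide loading, 17 were higher, against 14% over all genes, with a median of 0.40 (11 to 15 with 1 library left out, 11 without late replicate 2). None was called lower by limma without a block, while 1 was lower at an unadjusted p under 0.05 and 1 was called lower with mouse as a block. H2-K1, a classical class I heavy chain (chromosome 17, 33996017 to 34000347), had 5515, 6280 and 4663 in late and 11955, 12420 and 9078 in mature libraries, beside an early mean of 999 (1.02 ± 0.16, adjusted p = 9.5e-05). H2-Q7, a Qa-2 gene and a mark of the most mature single positive cells, had 414, 441 and 280 and then 2339, 2335 and 1616 (2.47 ± 0.28, adjusted p = 4.2e-06). B2m, the light chain, had 10963 ± 275 and 16741 ± 1505 without overlap but did not pass (0.61 ± 0.24, adjusted p = 0.072, or 9.9e-05 with mouse as a block). Class I genes are close paralogs, so reads may be divided among them.

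Slfn5 and Stat2 were lower in mature cells. Of 67 tested interferon-stimulated genes, 1 was higher and 7 lower (6 and 15 with mouse as a block), with a median of −0.18. The share called lower was that of all genes tested (10.4%). With 1 library left out, 3 to 6 were lower and 1 to 2 higher. From early to late, 57 of the 67 had been called higher, against 12.7% of all genes. Slfn5, a Schlafen gene, fell from 1685, 1149 and 1847 to 480, 453 and 484 (−1.69 ± 0.28, adjusted p = 0.00015), and Stat2 from 1192 ± 69.8 to 814 ± 23 (−0.55 ± 0.14, adjusted p = 0.0065). The rise was in Ifi27l2a, from 488, 477 and 418 to 1295, 1341 and 856 (1.31 ± 0.28, adjusted p = 0.0018). The interferon-stimulated response element, searched on both strands, was in 25 of 50 promoters of these genes (50%) and 5 of 24 class I promoters (20.8%), against 3.73% of genes tested. The window of Slfn5, shown because this gene fell and carries the element, holds it in capitals from position −155.

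Slfn5, chr11:82951852-82952151, plus strand: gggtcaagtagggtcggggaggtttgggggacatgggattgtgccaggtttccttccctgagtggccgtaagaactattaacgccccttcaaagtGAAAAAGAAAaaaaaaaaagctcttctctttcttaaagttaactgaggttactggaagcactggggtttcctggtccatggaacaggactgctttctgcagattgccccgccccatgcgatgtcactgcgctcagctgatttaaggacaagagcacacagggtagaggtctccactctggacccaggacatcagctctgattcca

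Klrd1, Eomes and Lgals1 were higher in mature cells. Of 37 tested genes of effector function and cytotoxicity, 13 were higher and 1 lower (18 and 2 with mouse as a block), against 14% and 10.4% over all genes, with a median of 0.93. With 1 library left out, 7 to 11 were higher. Klrd1, the CD94 chain of NK receptors, had 22, 34.5 and 46.8 in late and 301, 328 and 298 in mature libraries (3.19 ± 0.52, adjusted p = 0.00015). Eomes, a T-box factor of memory and innate-like CD8 cells, had 8.27, 6.10 and 6.15 and then 101, 69.0 and 60.4 (3.29 ± 0.58, adjusted p = 0.00033). Galectin-1 (Lgals1) rose from 1042 ± 87.9 to 3818 ± 757 (1.85 ± 0.27, adjusted p = 4.8e-05). Nkg7 had 1580 ± 79.7 and 2691 ± 143 and Gzma 782 ± 182 and 1717 ± 764, and neither passed (adjusted p = 0.13 and 0.16). The fall was in Zeb1, a repressor, from 1758 ± 156 to 1367 ± 130 (adjusted p = 0.019, and 0.10 without late or mature replicate 1).

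Of 47 cytokine receptor and signalling genes, 6 were higher and 6 lower (8 and 11 with mouse as a block), both close to the shares over all genes (14% and 10.4%). Il18r1, a chain of the interleukin-18 receptor (chromosome 1, 40465552 to 40500854), had 200, 202 and 123 in late and 1102, 901 and 821 in mature libraries (2.44 ± 0.33, adjusted p = 2.4e-05). Il2rb, the beta chain shared by the receptors for interleukins 2 and 15, had 2054, 1925 and 1777 and then 4179, 4598 and 3401 (1.07 ± 0.30, adjusted p = 0.012, and 0.05 without mature replicate 2). Il17re rose from 69.9 ± 15 to 280 ± 28.8 (2.01 ± 0.37, adjusted p = 0.00047). Il7r, the receptor for the survival cytokine interleukin 7, had 932, 1057 and 948 and then 1868, 2471 and 1774 without overlap and did not pass (adjusted p = 0.09, or 0.023 with mouse as a block). Il12rb1 fell from 965 ± 199 to 485 ± 57.8 (−0.98 ± 0.19, adjusted p = 0.00063) and the interferon receptor chain Ifnar1 from 4106 ± 560 to 2589 ± 266 (−0.66 ± 0.14, adjusted p = 0.0017).

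Among 19 chemokine and related receptors, 5 were higher and 3 lower (5 and 5 with mouse as a block, and 2 to 4 higher with 1 library left out), against 14% and 10.4% over all genes. Ccr4, which reads the medullary chemokines CCL17 and CCL22, fell from 5364, 4202 and 5547 to 1749, 1523 and 1945 (−1.53 ± 0.17, adjusted p = 3.5e-06), and Ccr9 fell as given above. Cxcr6 rose from 34.2, 42.9 and 75.0 to 205, 182 and 265 (2.14 ± 0.45, adjusted p = 0.0016). Of 23 genes of egress and recirculation, 8 were higher and 2 lower. Ly6e, a surface protein of the Ly6 family, rose from 4532 ± 511 to 10332 ± 1449 (1.19 ± 0.27, adjusted p = 0.0026). The exit receptor S1pr1 was already high in late cells, at 10220, 8896 and 8976, and had 11710, 12612 and 9139 in mature ones (adjusted p = 0.73), while Klf2, which controls it, had 6230 ± 1141 and 10407 ± 2318 (adjusted p = 0.31, or 0.0079 with mouse as a block). The early means were 1894 and 1933, and both genes had been called higher from early to late (adjusted p = 0.00037 and 0.017).

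Of 35 costimulatory and inhibitory receptors, 8 were lower and 3 higher (13 and 4 with mouse as a block, and 6 to 7 and 0 to 2 with 1 library left out). Over all genes 10.4% were lower and 14% higher, to which the counts of receptors, Gimap genes and integrins here compare. Cd28 fell from 11324 ± 1639 to 6344 ± 935 (−0.84 ± 0.21, adjusted p = 0.0068) and Cd274 (PD-L1) from 1103 ± 45.8 to 531 ± 47.5 (−1.06 ± 0.26, adjusted p = 0.0058). Of the 8 Gimap genes, GTPases of lymphocyte survival, 4 were lower, among them Gimap6, from 17932, 21620 and 14504 to 8044, 8717 and 6889 (−1.18 ± 0.20, adjusted p = 0.00022). Of 18 integrin chains, 5 were lower and 5 higher (3 to 5 and 1 to 4 with 1 library left out). Itgb3 fell from 6386 ± 416 to 2127 ± 126 (−1.59 ± 0.20, adjusted p = 1.3e-05) and Itga6 rose from 517 ± 25.4 to 859 ± 31.8 (0.73 ± 0.11, adjusted p = 7.9e-05).

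Of 13 ion channel genes, a part of those that the study had named, 5 were lower (3 to 4 with 1 library left out), against 10.4% over all genes, with a median of −0.40. By limma no Gimap gene and none of these 13 was higher, also at an unadjusted p under 0.05. Trpm4 and P2rx7, channel genes that the study also named, are not in the list and were added after their values had been seen. Trpm4, a cation channel, had 95.2, 114 and 86.2 in late and 161, 171 and 122 in mature libraries, a rise (0.61 ± 0.20, adjusted p = 0.031) that was lost without any 1 of late replicates 1 and 3 and mature replicates 1 and 2 (0.082 to 0.12) and under both other scalings (0.056 and 0.063). The ATP-gated channel gene P2rx7 fell from 2711, 1826 and 3287 to 1139, 822 and 1596 (−1.15 ± 0.35, adjusted p = 0.021), and its call was lost without any 1 of the same 4 libraries (0.052 to 0.11). The genes were chosen by the study on these samples and are no independent evidence of a direction. The potassium channel genes Kcnh2 and Kcnh3 fell from 613 ± 57.2 to 222 ± 22.4 (−1.46 ± 0.18, adjusted p = 8.6e-06) and from 388 ± 25.9 to 173 ± 5.74 (−1.16 ± 0.19, adjusted p = 0.00012). Of 31 sialyltransferase and glycan genes, 3 were lower and 3 higher, no larger shares than over all genes (10.4% and 14%), and 1 was higher without late replicate 1 or 2 (6 lower and 5 higher with mouse as a block). The falls included St3gal2, from 737 ± 237 to 350 ± 154 (−1.13 ± 0.28, adjusted p = 0.006, 0.052 without mature replicate 2 and 0.078 with only the 2 groups compared) and St6gal1 from 7627 ± 763 to 5275 ± 219 (−0.53 ± 0.14, adjusted p = 0.01).

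Genes of respiration and protein synthesis had small positive medians. The counts of the 5 lists given next stand beside 14% higher and 10.4% lower over all genes. Of 79 nuclear genes of the respiratory chain and ATP synthase, 47 were higher and 1 lower (57 and 2 with mouse as a block), with a median of 0.42. For mitochondrial ribosomal proteins 36 of 78 were higher (0.41), and for cytosolic aminoacyl-tRNA synthetases 15 of 20 (0.42). No gene of the latter 2 lists was lower, also at an unadjusted p under 0.05. With equal totals the 3 counts of rises were 36, 32 and 12, and with 1 library left out they were 27 to 35, 22 to 28 and 10 to 13. Without both OT-1 libraries numbered 3 they were 14, 18 and 7. Of 37 sterol and fatty acid genes, 13 were higher and 3 lower (6 to 11 and 2 to 4 with 1 library left out). Idi1, an enzyme of the isoprenoid branch of sterol synthesis, rose from 189, 243 and 207 to 517, 448 and 694 (1.36 ± 0.34, adjusted p = 0.0055), and Mvd of the same pathway fell from 441 ± 32.0 to 314 ± 5.99 (−0.49 ± 0.13, adjusted p = 0.0092). A sterol response element (TCACNCCAC, either strand) was in 1 of 26 promoters of the list (3.85%) and 1.41% of genes tested. Of 26 glycolytic genes, 7 were higher and 6 lower (6 to 8 and 3 to 6 with 1 library left out). Tpi1 rose from 998 ± 151 to 2148 ± 240 (1.11 ± 0.30, adjusted p = 0.0091) and Ldhb fell from 843 ± 3.82 to 529 ± 30.5 (−0.67 ± 0.16, adjusted p = 0.0044).

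**Figure D3:**
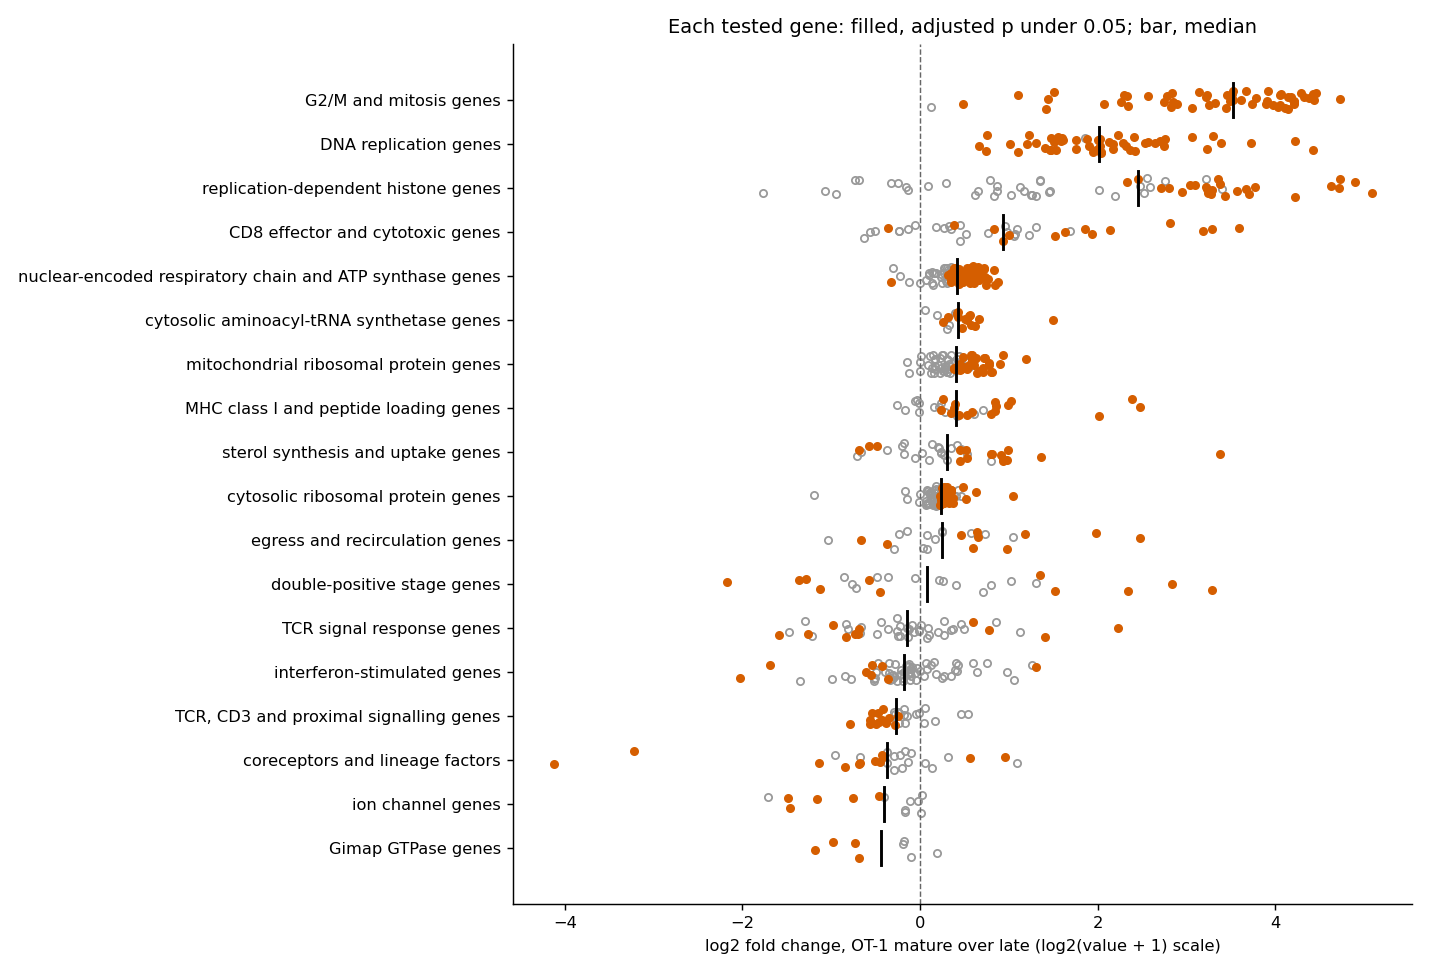
The log2 fold change from late to mature of each tested gene in 18 lists, filled where the adjusted p was under 0.05, with a bar at the list's median and a dashed line at 0. The mitosis list lies furthest to the right, with a median of 3.52, and the Gimap list furthest to the left, with a median of −0.44.

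Over all genes, the largest falls among called genes with a group mean of at least 100 and no overlap between the stages were Cd4 and Zbtb7b, then Gm14718, the synaptic scaffold gene Shank3, C230085N15Rik, Gm22993, Pipox and Spo11. Shank3 had 214, 113 and 195 in late and 32.2, 20.0 and 20.7 in mature libraries (−2.77 ± 0.36, adjusted p = 1.4e-05). Pipox, an oxidase of pipecolic acid and sarcosine, had 116 ± 7.97 and 23.1 ± 5.20 (−2.30 ± 0.26, adjusted p = 4.8e-06). The largest rises were Arsi, Sapcd2, Aurkb, Hist1h3c, Shcbp1, Mxd3, Neurl1b and Espl1, at log2 fold changes of 4.46 to 4.94. Of these, Aurkb and Espl1 belong to the mitosis list and Hist1h3c to the histone list. Shcbp1 rose from 69.3, 27.2 and 44.6 to 1036, 1040 and 1059 (4.54 ± 0.84, adjusted p = 0.00046). Arsi, an arylsulfatase, had 6.21, 0 and 17.2 and then 154, 83.5 and 288, below its early mean of 458. Among genes named after their values were seen, Golm1, which encodes a Golgi membrane protein, had 39.5, 11.6 and 44.8 and then 589, 555 and 459 (4.22 ± 0.52, adjusted p = 1e-05). Amica1, the adhesion receptor JAML, had 147, 93.2 and 147 and then 1086, 968 and 1069 (3.03 ± 0.35, adjusted p = 5.3e-06). Rora, a nuclear receptor of innate-like lymphocytes, fell from 928, 1037 and 809 to 219, 247 and 256 (−1.93 ± 0.38, adjusted p = 0.00094), and Il17rb from 2429, 2165 and 3567 to 685, 489 and 1094 (−1.89 ± 0.25, adjusted p = 2e-05).

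Markers of other cells were low for some lists and not for others. Summed granulocyte markers stayed at or below 6.55 in every OT-1 library and macrophage markers at 118 to 196 in late and 134 to 157 in mature libraries. Dendritic cell markers had sums of 392 to 457 in late and 825 to 1226 in mature libraries, with H2-Ab1 among them at 83.2, 24 and 56.7 and then 287, 232 and 177 (adjusted p = 0.0035). B cell markers summed to 5449 to 7513 in late and 9094 to 9812 in mature libraries, and 3 of 6 tested were called higher (1 to 3 with 1 library left out), against 14% over all genes. Ighm, whose sterile transcripts T cells also make, had 6214 ± 993 and 8933 ± 365 (adjusted p = 0.0072, and 0.054 without late replicate 2). Trdc fell from 8753 ± 40.4 to 5332 ± 76.0 (−0.72 ± 0.19, adjusted p = 0.0098, and 0.056 without both OT-1 libraries numbered 3). Erythroid sums were highest in replicate 3 of each stage, at 1108 and 1174 against 76.4 to 302 in the other libraries. Gamma-delta T cell markers summed to 11410 to 13520 in late and 7624 to 9591 in mature libraries, mostly from Trdc. Of these 7 markers, 2 were called higher (0 to 2 with 1 library left out) and 1 lower, against 14% and 10.4% over all genes. Natural killer cell markers summed to 868 to 1334 in late and 1437 to 3039 in mature libraries, and regulatory T cell markers to 721 to 1456 and 551 to 989. Double-negative thymocyte markers summed to 5170 to 7106 in late and 7513 to 9245 in mature libraries without overlap, mostly from Dtx1 (means of 5054 and 6902). Fibroblast and endothelial markers summed to 3065 to 3209 and 1942 to 2156, mostly from Pecam1 (means of 3000 and 1923), and thymic epithelial markers to 142 to 168 and 107 to 128. Of 4 tested fibroblast and endothelial markers, 1 was called higher (0 to 1 with 1 library left out) and 1 lower. T cell markers summed to 166700 to 187600 in late and 167600 to 171800 in mature libraries. What part other cells had in these results was not tested.

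In the other lines, the same step was compared over F5 (6 libraries) and TG6 (5 libraries), and the difference in change was tested as an interaction. The 2 tests share the OT-1 libraries. Against F5, 138 genes differed (0.843%), with 68 more positive in OT-1 (0.415%) and 70 more negative (0.428%). Against TG6, 192 differed (1.17%), with 43 more positive (0.263%) and 149 more negative (0.91%). With mouse as a block there were 307 and 327 against F5 and 204 and 338 against TG6. In F5 56 and in TG6 56 of the 58 mitosis genes were called higher, and 48 and 48 of the 52 replication genes, against 12.2% and 14.5% of all genes. Median log2 fold changes of the mitosis list were 3.52 in OT-1, 3.21 in F5 and 3.70 in TG6, and those of the replication list were 2.01, 1.80 and 2.00. Among the genes of both lists, Kif23, a kinesin of the central spindle, differed in change against both lines. It rose in OT-1 from 925 ± 70.2 to 2622 ± 114 while F5 had 1777 and 1391 and TG6 1628 and 1459 as means (difference 1.88 ± 0.25, adjusted p = 0.00027, and 1.71 ± 0.26, adjusted p = 0.0018). The level in mature cells varied more in the other lines, with mitosis sums of 66630 to 150800 in F5 and 58620, 62200 and 182000 in TG6, the last in mature replicate 3.

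Cytosolic ribosomal protein genes moved less in OT-1 than in TG6. Of 85 tested, 34 were higher in OT-1 (16 to 26 with 1 library left out), against 14% over all genes, with a median of 0.24, against 0.53 in F5 and 0.88 in TG6. The change was more negative in OT-1 than in TG6 for 63 of the 85, against 0.91% of all genes, and than in F5 for 3 of the 85 (12 with mouse as a block). The count against F5 was 30 without late replicate 1 of F5, 0 to 2 without any other 1 library of either line and 0 with only the 4 groups compared. Rplp0 had 47730, 47510 and 47692 in late and 49883, 51683 and 47956 in mature OT-1 libraries, while F5 went from a mean of 24680 to 38694 and TG6 from 24017 to 40828. In this gene every late OT-1 library was above the mature means of the other lines. The count against TG6 was 65 with equal totals and 60 after quantile normalization, and it fell to 25 without late replicate 2 of TG6, which leaves that group with 1 library. The count against F5 rose to 21 with equal totals and 25 after quantile normalization. Ribosomal protein genes have many pseudogenes, so their reads may be divided.

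**Figure D4:**
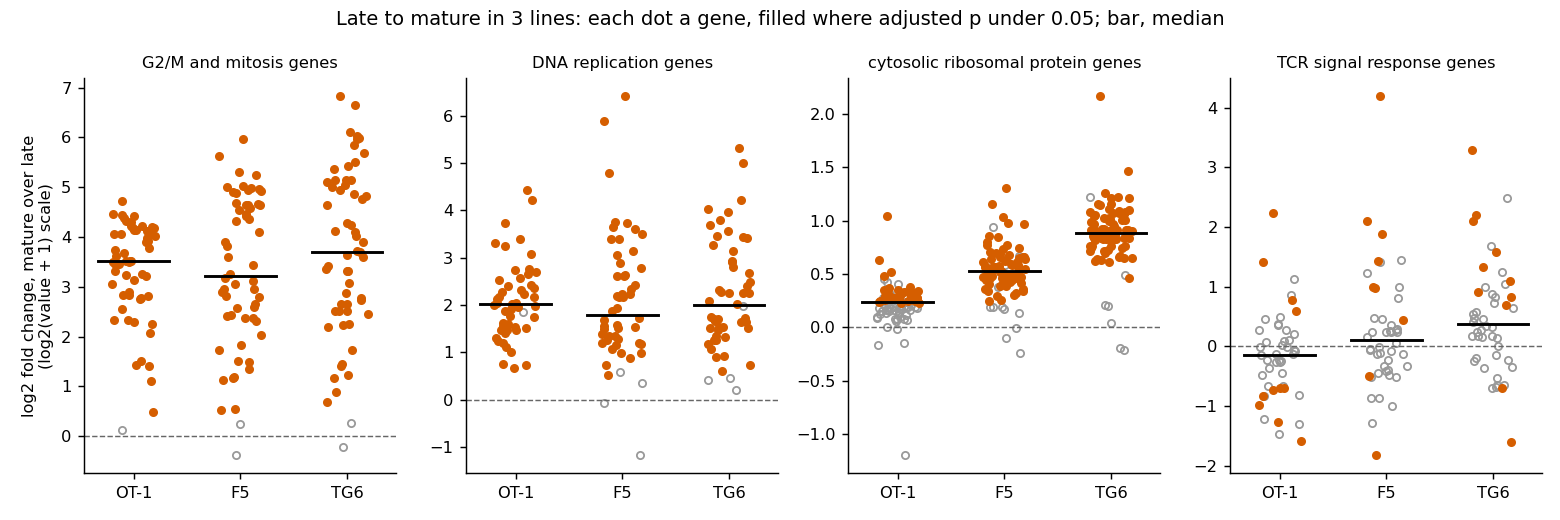
The log2 fold change from late to mature in OT-1, F5 and TG6 for the genes of 4 lists, each dot a gene, filled where its adjusted p was under 0.05, with a bar at the median. The medians of the ribosomal protein genes are 0.24, 0.53 and 0.88, while those of the replication genes are 2.01, 1.80 and 2.00.

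Some differences were in genes whose levels in late OT-1 cells were far above those in late F5 cells. Itgae, the CD103 chain that binds E-cadherin (chromosome 11, 73090583 to 73147446), had 4019, 3977 and 2934 in late and 9508, 10721 and 7570 in mature OT-1 libraries, while F5 went from 14.1 to 44.9 to 1421 to 3063 (difference −5.12 ± 0.62, adjusted p = 0.00013). Its rise within OT-1 (1.35 ± 0.44, adjusted p = 0.03) was lost without any 1 of mature replicates 1 and 2 and late replicates 1 to 3 (0.054 to 0.093). Fam101b had 1091 ± 75.3 and 1954 ± 267 in OT-1 and means of 64.7 and 1314 in F5 and 148 and 1794 in TG6 (differences −3.54 ± 0.41, adjusted p = 0.00011, and −2.73 ± 0.44, adjusted p = 0.0019). Il2rb differed from F5 by −3.30 ± 0.42 (adjusted p = 0.0002), with F5 means of 118 and 2370. In these 3 genes the ratio of the OT-1 mean to the F5 mean was smaller in mature than in late cells.

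Il18r1 and Pcsk1 rose in OT-1 and had lower mature than late means in the other lines. Il18r1 had means of 512 and 152 in F5 and 147 and 95.2 in TG6 (differences 4.12 ± 0.47, adjusted p = 0.0001, and 3.16 ± 0.50, adjusted p = 0.0019). Pcsk1, a prohormone convertase gene (chromosome 13, 75089826 to 75134861), had 16.0, 23.4 and 13.7 in late and 183, 137 and 185 in mature OT-1 libraries (3.20 ± 0.49, adjusted p = 7.1e-05), but means of 122 and 42.3 in F5 and 588 and 83.4 in TG6 (differences 4.73 ± 0.69, adjusted p = 0.00094, and 6.45 ± 0.73, adjusted p = 0.00024). Cd44 and Eomes differed from F5 by 2.39 ± 0.29 (adjusted p = 0.00013) and 4.06 ± 0.83 (adjusted p = 0.017), and Eomes from TG6 by 0.61 ± 0.88 (adjusted p = 0.92). Cd5, whose level follows self-reactivity, differed from TG6 by −1.13 ± 0.28 (adjusted p = 0.046). The change of Cd5 within OT-1 was itself not called, nor was it called in any of 19 alternatives.

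**Figure D5:**
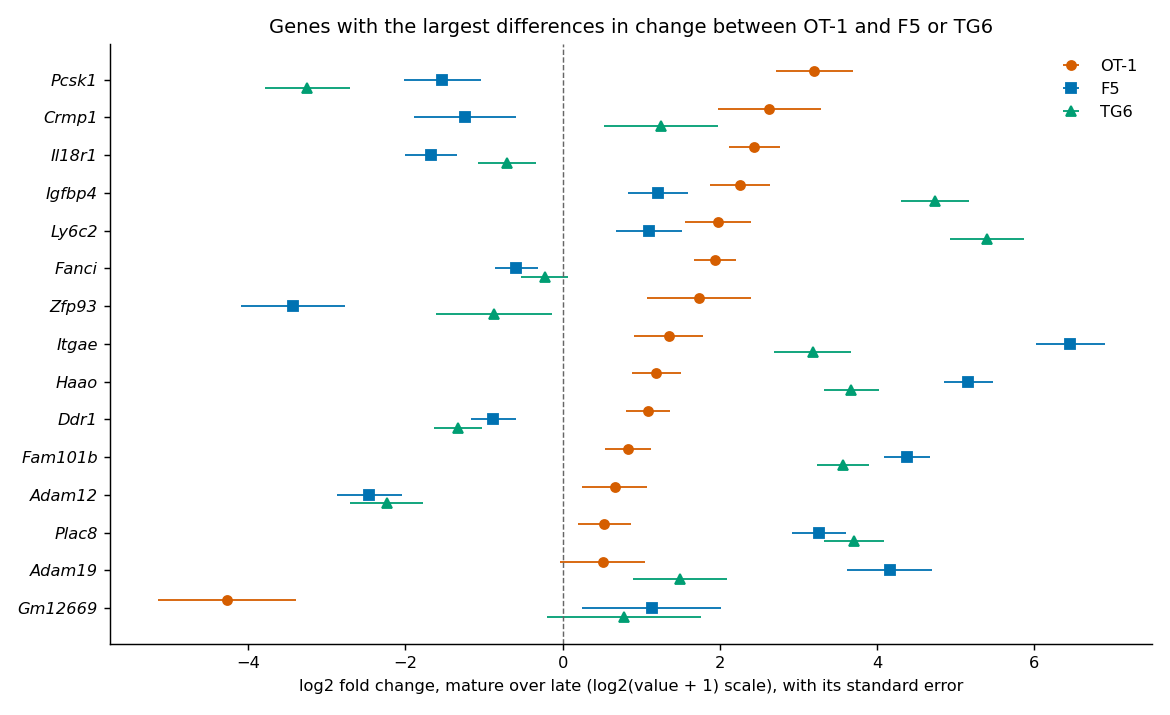
The log2 fold change from late to mature, with its standard error, in OT-1, F5 and TG6 for the genes with the largest differences between OT-1 and another line. Pcsk1 and Il18r1 lie to the right of 0 in OT-1 and to the left of 0 in F5 and TG6, while Itgae, Haao and Fam101b rise least in OT-1.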

How the data were processed

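Sorted thymocytes of OT-1, F5 and TG6 mice were profiled by RNA sequencing of total RNA. Per the labels and the study's methods, reads were trimmed by the authors (Trimmomatic 0.32), placed on mm10 (Bowtie2 2.3.2) and summed to estimated counts (RSEM 1.2.31), which DESeq2 size factors then scaled. The deposited table therefore holds a normalized signal per gene, in normalized counts, for 26 libraries. Whole reads could not be recovered, since 43.0% to 43.6% of the OT-1 late and mature values were whole multiples of 1 read within 0.01, so no count test was run.

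The log2(value + 1) of 16372 genes (at least 10 in at least 2 libraries) was fitted with limma 3.58.1 in R 4.3.3, with 9 group means, a trended prior variance, 17 residual degrees of freedom and Benjamini-Hochberg adjustment. Differences between lines were interaction terms. Per the labels, each line had 3 mice as biological replicates and libraries carry the replicate's number, which was taken to mark the mouse; no label ties a number to an animal directly. The deviations of same-numbered late and mature OT-1 libraries correlated at 0.0418, 0.125 and 0.178, each library best with its own number. A fit with mouse as a block (11 residual degrees of freedom) was an alternative, beside those named in the closing section.

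Genes were named by a rule: per direction the 8 largest called changes without overlap and with a mean of at least 100, up to 5 called genes per list and direction with a mean of at least 50, the 5 largest differences per direction and line with a mean of at least 100, and the genes of the sorted proteins with Rag1 and Rag2. Receptor variable segments were left out. Some genes that the rule names are not reported here. Members, lists and cell cycle motifs were chosen with earlier results of these data known, and genes that did not pass a test, or that no rule named, were chosen after their values were seen. Positions are from GENCODE M21 (GRCm38, 92.8% of genes tested).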

Additional observations from a re-analysis of the deposited data

Results flagged for a closer look

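Between lines, the change from late to mature differed by an interaction test in limma for the genes below, which were the 5 largest differences in each direction that passed the naming rule. Values are the log2 fold change in OT-1 minus that in the other line, and the tests against F5 and TG6 share the OT-1 libraries.

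Against F5, the changes that were more positive in OT-1 were in Zfp93 (5.16), Pcsk1 (4.73), Il18r1 (4.12), Crmp1 (3.86) and Adam12 (3.11). Crmp1 had means of 20.9 and 134 in OT-1 and 7.56 and 3.37 in F5, and its call held in 6 of 21 alternatives and was lost without any 1 of the 6 OT-1 libraries. Zfp93 had means of 16.6 and 56.6 in OT-1, where it was not called (adjusted p = 0.06), and 136 and 12.4 in F5. The changes that were more negative in OT-1 were in Gm12669 (−5.40), Itgae (−5.12), Haao (−3.96), Adam19 (−3.65) and Fam101b (−3.54). Gm12669 had 43.5, 79.6 and 21.3 normalized counts in late and 0, 0 and 10.1 in mature OT-1 libraries, and its call was lost under most alternatives. The call of Adam19 was lost without any 1 of mature replicates 1 and 3 and late replicate 2 of F5 or mature replicate 3 and late replicates 1 and 2 of OT-1 (adjusted p = 0.054 to 0.066), with a pseudocount of 0.1 (0.15) and with only the 4 groups compared (0.068), and that of Adam12 in the last case (0.09). That of Adam19 was also lost without both OT-1 libraries numbered 3. Haao, an enzyme of tryptophan breakdown, had means of 89.7 and 207 in OT-1 and 4.06 and 180 in F5.

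Against TG6, the more positive changes were in Pcsk1 (6.45), Il18r1 (3.16), Adam12 (2.90), the collagen receptor gene Ddr1 (2.42) and the DNA repair gene Fanci (2.18). Fanci rose in OT-1 from 227 ± 33.6 to 870 ± 51.6 and had means of 558 and 520 in TG6. The more negative changes were in Ly6c2 (−3.42), Plac8 (−3.18), Fam101b (−2.73), Igfbp4 (−2.49) and Haao (−2.47). Ly6c2, a surface protein of memory and mature CD8 cells, had means of 50.6 and 191 in OT-1 and 8.95 and 415 in TG6. Igfbp4 had means of 1516 and 7030 in OT-1 and 142 and 3841 in TG6, and its call was lost without any 1 of several libraries of either line (adjusted p up to 0.14). The calls of Adam12 and Haao were lost without late replicate 2 of TG6, which leaves that group with 1 library. That of Haao was also lost without both OT-1 libraries numbered 3. With only the 4 groups compared, the calls of Adam12 and Fanci were lost (adjusted p = 0.17 and 0.062).

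The calls of Fam101b, Haao, Il18r1, Itgae, Pcsk1 and Zfp93 against F5, and of Ddr1, Fam101b, Il18r1, Ly6c2, Pcsk1 and Plac8 against TG6, passed under every alternative run.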

How the results depend on the processing

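Of 124 recomputed counts that answer a comparison, 93 stayed within 1.5 times the reported count. With mouse as a block 2655 genes were lower in OT-1, and the differences in change were 307 and 327 against F5 and 204 and 338 against TG6 (more positive and more negative). In the fit of all groups, the block changed calls within OT-1 of genes named in the text only as given beside them. With the block and only the 2 groups compared, the calls of Zeb1 (adjusted p = 0.083), Gm22993 (0.081), Gm12669 (0.062) and Aqp11 (0.055) were lost, and Runx3 (0.026), Gzma (0.025), Nkg7 (0.005), Adam19 (0.0085), Plac8 (0.03) and Zfp93 (0.026) gained one. The genes more negative against F5 were 135 with equal totals and 121 after quantile normalization. With only the 4 groups compared, 42 were more positive against F5 and 17 against TG6. With 1 library of the lines compared left out, 1706 to 2004 genes were higher and 1157 to 1389 lower in OT-1, 43 to 92 and 37 to 139 differed against F5, and 16 to 232 and 56 to 300 against TG6. The libraries that moved these by over 1.5 times were, against F5, mature replicate 3 (44 and 40) and late replicate 1 (139 more negative) of F5, and mature replicates 1 (44 and 42), 2 (43 and 43) and 3 (39 more negative) and late replicates 1 (44 and 37) and 2 (44 more negative) of OT-1. Against TG6 they were mature replicate 3 (232 and 300) and late replicate 2 (16 and 56) of TG6 and late replicate 1 of OT-1 (28 more positive). Without both OT-1 libraries numbered 3, an alternative added after seeing the data, 1468 genes were higher and 925 lower, 29 and 26 differed against F5, and 23 and 91 against TG6. Of the lists, 56 mitosis and 50 replication genes were then higher, but 16 histone, 13 cytosolic ribosomal, 8 effector, 4 sterol and 1 double-positive stage genes, and 7 receptor chain and signalling and 2 interferon-stimulated genes were lower. Within OT-1, the calls of Bbc3 (adjusted p = 0.1), C230085N15Rik (0.081), Cd274 (0.054), Idi1 (0.071), Mvd (0.067), St6gal1 (0.078) and Trdc (0.056) were then lost. So were those of Rag1, Mns1, Aqp11, Bcl2a1b, P2rx7, Trpm4 and Itgae, whose losses without single libraries are given above. The cause was not tested. Among single genes, signs turned only in values that were not called. Ccr7 had −0.01 after quantile normalization, and with 1 OT-1 library left out −0.11 (late replicate 3), −0.08 (mature replicate 2) and up to 0.30 (mature replicate 3). Pttg1 had −0.03 after quantile normalization, Cd69 0.26 and 0.14 without mature replicates 1 and 2, 0.27 without late replicate 3 and −0.42 without mature replicate 3, and Rag2 −0.07 without both libraries numbered 3. Under equal totals and quantile normalization the median of all genes was −0.08 in place of −0.02. The median of the double-positive stage list, 0.08, was −0.13 without mature replicate 3, −0.08 without both libraries numbered 3 and −0.01 after quantile normalization.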
